A study of Mus musculus with 44 samples.

Results

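CK-666 was compared with its vehicle, dimethyl sulfoxide (DMSO), in AsiSI-MEFs. The libraries were those titled HTGTS WT MEF 4OHT CK666 and HTGTS WT MEF 4OHT DMSO, 6 of each, and they made up 12 of the 32 HTGTS libraries and of the 44 samples of the series. In AsiSI-MEFs, a line of mouse embryonic fibroblasts, the restriction enzyme AsiSI can be switched on; the labels give the strain as C57BL/6 and the genotype as WT, and the paper's methods name the inducible line. All 12 cultures received 3 µg/ml doxycycline for 24 h, which turns on the enzyme's expression, together with 1 µg/ml of 4OHT (4-hydroxytamoxifen) over the last 6 h, which moves it into the nucleus. CK-666 at 100 µM, or DMSO, was present for 6 h. Breaks were thus induced in controls and treated cells alike. Libraries of the same replicate number were compared as pairs and lie in the same sequencing run by their read names, although replicates 3 to 6 share 1 run and the labels do not say what else a number stands for. The paper calls the replicates biological, but the labels do not say whether they were separate cultures, so the p-values measure the spread between these libraries.

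The ARP2/3 complex builds branched actin networks and, in the nucleus, has been linked to the movement of DNA breaks; CK-666 inhibits it. HTGTS (high-throughput genome-wide translocation sequencing) starts at a known break, the bait, and reads across the join into whatever sequence that end met, the prey. AsiSI cuts its palindromic motif and leaves short 3′ overhangs, so that ends joined without loss of letters restore the motif. Other joins can have short overlaps, none (blunt) or inserted letters. For each junction the table records the strand on which the prey was aligned, where either alignment ends, and how many letters bait and prey share.

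The bait motif spans 13271317 to 13271324 of chromosome 2 in mm10, with the break at 13271321. It lies in an untranslated exon of Rsu1 (ENSMUSG00000026727), a gene on the minus strand that encodes a suppressor of Ras signalling, 6 bp from the closest annotated start. The motif joined most often to it lies at 156144260 to 156144267 of the same chromosome, in an untranslated exon of Romo1 (ENSMUSG00000067847, plus strand), which encodes a modulator of reactive oxygen species in mitochondria. The sequences of these partners, from the mm10 reference, are shown so that the joins between them can be read, with capitals on the motif.
Bait, chr2:13271306-13271335, plus strand: accctgtcccaGCGATCGCgcaggcgcaca
Romo1, chr2:156144249-156144278, plus strand: cgtcgagctgaGCGATCGCagcggagaacg
Romo1, same interval, minus strand: cgttctccgctGCGATCGCtcagctcgacg

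The next lines show stretches of deposited reads, 1 for each kind of join at this motif, with the read summed most often over the 12 libraries chosen in each class and capitals on the letters that either end kept of its motif. Of 63 prey with an overlap of exactly 8 at this motif, 32 had the first read, in which bait and Romo1 kept every letter. Of 229 blunt joins, 10 had the second, in which 1 letter of the motif was gone. The third read, with an overlap of 1, stood for 16 of 299 prey with an overlap of 1 or 2, and no whole motif stood in these letters. Its prey began 57 bp from the motif and read back towards it on the minus strand, a kind called inward below. The fourth, also inward, stood for 14 of 225 prey with an insertion.
Overlap of 8: accctgtcccaGCGATCGCtcagctcgacg
Overlap of 0: accctgtcccaGCGACGCtcagctcgacgt
Overlap of 1: caggaacacaccctgaccccgcacgcgcga
Insertion of 20: GCGATCGCagcggagaacgaggtgaggtgg

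The tables held 42707 junctions, between 1244 and 6597 per DMSO library (median 3549.5) and between 362 and 7112 per CK-666 library (median 2414.5). Shares below are over 38048 of them, those on an assembled chromosome (1 to 19, X or Y) and over 10 kb away from the bait. These numbered 1133 to 5829 per DMSO library (median 3170.5) and 335 to 6116 per CK-666 library (median 2188.5). Replicate 2 of CK-666 was the smallest, and its right-side share of 51.6% had a 95% Wilson interval from 46.3% to 56.9%, against 48.4% to 50.9% around 49.6% in replicate 3, the largest. Such intervals cover counting error only. The pair of replicate 3 stood apart by its low share of prey at AsiSI motifs. Each tested value was recomputed without each pair in turn.

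The recorded strand of the prey, read here as the side of its break, was split almost evenly in every library under either treatment; inward prey, described below, include reads in which the strand and the letters beside the bait point to opposite sides. The bait keeps its centromere side in all 12 libraries, so a prey read towards higher coordinates, its right side, gives a product with 1 centromere when the prey is on another chromosome, and a prey on the left side gives a product with 2. Right-side prey made up 49.5% of junctions in the lowest DMSO library, 49.8% at the median and 50.6% in the highest. With CK-666 the corresponding values were 49.2%, 49.8% and 51.6%. The groups overlapped. The mean log2 ratio of CK-666 to DMSO over pairs was 0.0072 ± 0.025 (SD), and an exact two-sided sign-flip test over the pairs gave p = 0.56 (0.79 after Benjamini-Hochberg adjustment over 8 shares). The single pairs ran from -0.015 to 0.048, which is also the exact 96.9% interval of the ratio. Of the 8 shares tested in this family, 0 had an adjusted p under 0.05 (0% of the tests) and 0 an unadjusted p under 0.05. The adjusted count says little, since most of the 8 shares would have to reach the smallest p of this test, 0.03125.

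Among prey at AsiSI motifs on other chromosomes, which are the recurrent translocations, the right side was used by 49.6% to 51.7% with DMSO (median 50.7%) and by 50.7% to 51.6% with CK-666 (median 51.1%). The pair ratios ran from -0.013 to 0.058 on the log2 scale (adjusted p = 0.75, exact sign-flip test). On chromosome 2 beyond the bait, the side separates deletion-type joins from inversion-type joins. There the right side was used by 43.4% to 53.6% with DMSO (median 48.8%) and by 45.3% to 60.5% with CK-666 (median 48.3%), with pair ratios from -0.24 to 0.26 (adjusted p = 0.88, exact sign-flip test). The highest of these, 60.5%, came from 86 junctions of replicate 2 of CK-666, and the mean ratio of 0.025 was -0.015 without that pair. Without the pair of replicate 5 the mean ratio was -0.021.

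**Figure D1:**
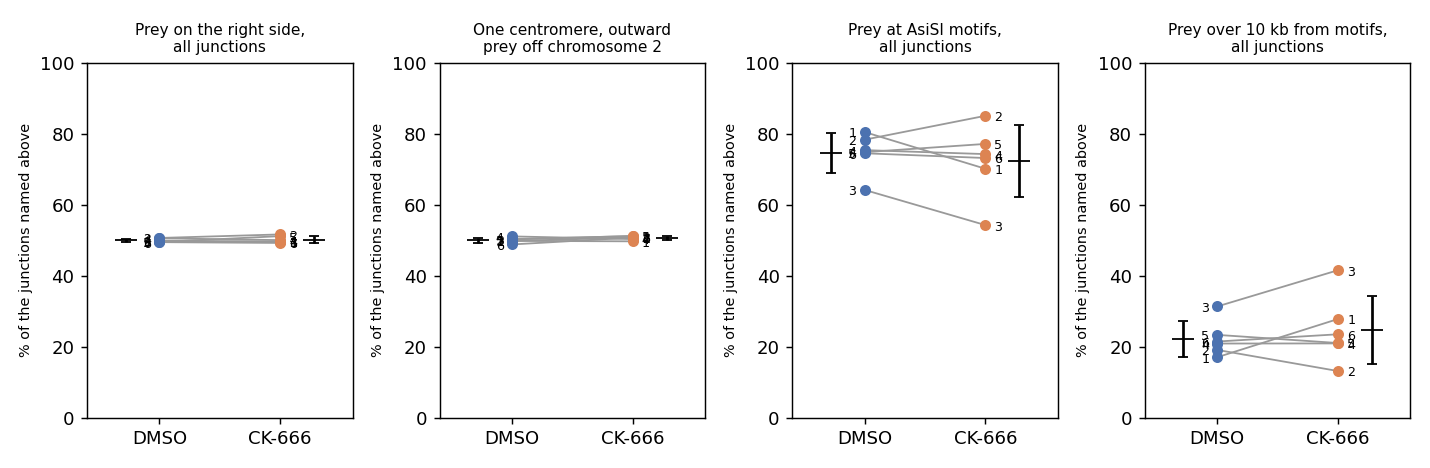
Share of junctions in % (vertical axes, 0 to 100) for the 6 DMSO and 6 CK-666 libraries; points are libraries numbered by replicate, grey lines join pairs, and black bars give the mean and SD of a group. The right-side share and the share with 1 centromere lie close to 50% in all libraries, while the shares at AsiSI motifs and over 10 kb from a motif spread widely in both groups.

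Prey breaks lay mostly at AsiSI motifs in both conditions. Prey under 500 bp from a motif made up 64.2% to 80.5% of junctions with DMSO (median 75.1%) and 54.3% to 85.1% with CK-666 (median 73.7%). Replicate 3 was the lowest in each group. The mean log2 ratio was -0.05 ± 0.14 (SD, 6 pairs), with CK-666 higher in 2 of 6 pairs (adjusted p = 0.75, exact sign-flip test), and -0.017 without the pair of replicate 3. Prey over 10 kb from any motif made up 17.0% to 31.3% with DMSO (median 21.2%) and 13.1% to 41.6% with CK-666 (median 22.3%), a mean ratio of 0.09 ± 0.43 (SD, 6 pairs; adjusted p = 0.79, exact sign-flip test). Without the pair of replicate 1 this mean was -0.027. Some of these distal prey fell in 79 windows of 10 kb that each held at least 20 junctions over 6 libraries with a Cas9 bait. These windows held between 0% and 51.1% of the distal prey of a CK-666 library and between 3.20% and 45.5% of those of a DMSO library. With the windows left out the mean ratio of the distal share was 0.24 (adjusted p = 0.44, exact sign-flip test). The share at motifs was higher in the library with fewer junctions in 5 of 6 pairs, and the part of library size in these ratios was not tested.

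Most prey at motifs took their end from within a few letters of the motif. Prey at motifs fell into 2 kinds. In 22313 the read ran outward, away from the prey break, or began at most 8 bp outside the motif and ran into it. Both are called outward. In the other 4322 the read started over 8 bp from the motif and ran inward, towards it. The latter kind was noticed after the values were seen and is given as a description. Outward prey lay at a median of 0 bp from the motif in all libraries. Their 95th percentile was 19.5 bp ± 2.79 (SD, n = 6) with DMSO and 15.7 bp ± 6.12 (SD, n = 6) with CK-666. Only 1.69% ± 0.202 (SD) with DMSO and 1.31% ± 0.817 (SD) with CK-666 lay over 50 bp away. Over all prey at motifs, the share over 50 bp away was 7.30% to 11.5% with DMSO (median 10.8%) and 4.21% to 12.8% with CK-666 (median 9.77%), a mean log2 ratio of -0.14 ± 0.66 (adjusted p = 0.88, exact sign-flip test). That mean was 0.11 without the pair of replicate 2. Most of these remote prey, 86.2% of those with DMSO and 87.3% with CK-666, were of the inward kind. Whether inward reads arose in the cells or in library preparation was not tested, for this share as for those of sides and insertions.

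In 43.6% to 65.9% of prey at motifs with DMSO (median 51.6%), the prey alignment began at the motif's outer edge or outside it. With CK-666 this was so in 46.2% to 73.7% (median 57.2%). The mean log2 ratio of this share was 0.12 ± 0.14 (SD), with CK-666 higher in 4 of 6 pairs (adjusted p = 0.75, exact sign-flip test). All inward prey are counted in it, of which 34.4% with DMSO and 33.4% with CK-666 were aligned into or past the motif. The bait alignment held its whole motif in 34.8% to 56.7% with DMSO (median 41.6%) and in 35.3% to 63.3% with CK-666 (median 48.0%). Here the mean was 0.14 ± 0.23 (SD), again with 4 of 6 pairs higher (adjusted p = 0.75, exact sign-flip test). The ranges of the groups overlapped for both ends. Among ends that lost letters, losses of 3 to 5 stood out, which is where the enzyme cuts either strand. Outward prey with 3 to 5 letters missing from the prey end made up 25.03% ± 4.01 (SD) with DMSO and 23.6% ± 4.51 (SD) with CK-666; for the bait end the values were 23.8% ± 5.91 (SD) and 22.4% ± 7.10 (SD).

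A loss of more than 8 letters from the bait end, past its whole motif, was found in 16.2% to 23.4% of outward prey with DMSO (median 21.2%) and in 8.41% to 21.1% with CK-666 (median 15.9%). CK-666 had the lower value in 6 of 6 pairs, with a mean ratio of -0.43 ± 0.32 (SD) on the log2 scale, although the groups overlapped. This class was picked after its values were seen and was not tested. It was higher in the library with fewer junctions in 3 of 6 pairs, and its Spearman correlation with the junctions used was 0.62 over the 12 libraries and 0.40 over the 8 of replicates 3 to 6. The same loss from the prey end was found in 22.7% ± 5.37 (SD) with DMSO and 18.7% ± 7.10 (SD) with CK-666, which had the lower value in 4 of 6 pairs.

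**Figure D2:**
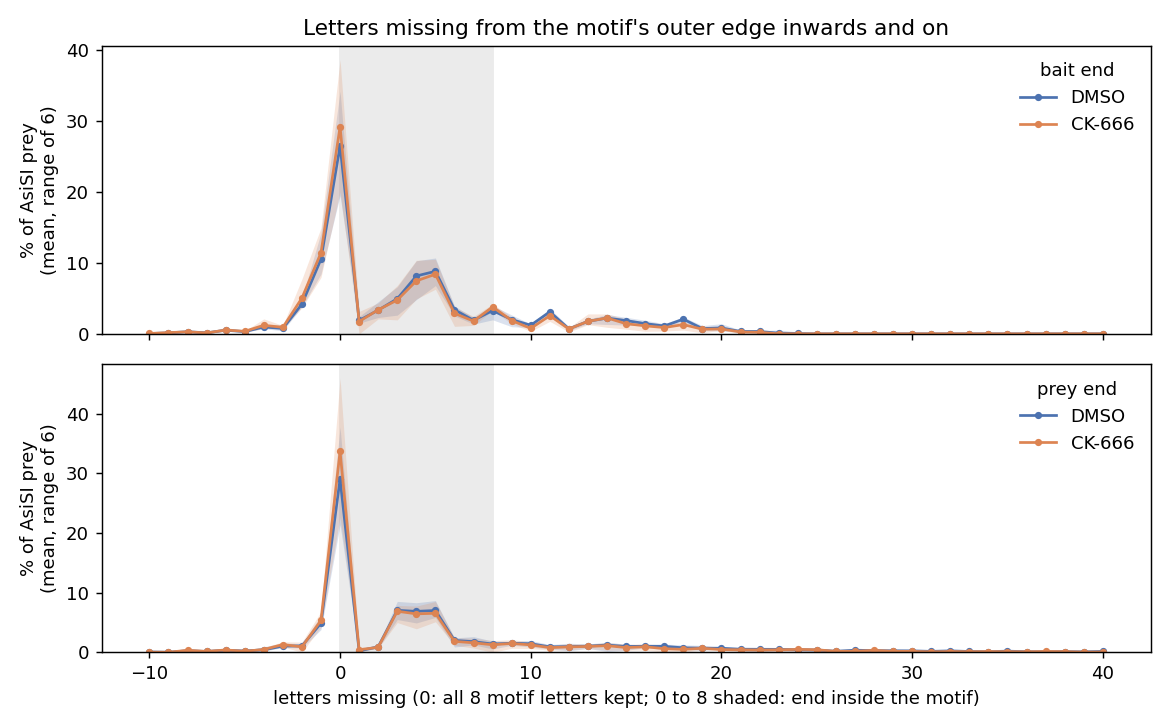
Letters missing from the outer edge of the motif (horizontal axis) at the bait end (top) and prey end (bottom), as % of prey at AsiSI motifs; lines are means of 6 libraries, bands their range, and grey marks ends inside the motif. Both groups peak at 0 letters and again at 3 to 5, and their bands overlap at these peaks.

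Overlaps between bait and prey at motifs peaked at 0 to 2 letters and at 8. An overlap of exactly 8 is what a join without loss gives, since the motif then belongs to either end. It was found in 11.5% to 23.1% of prey at motifs with DMSO (median 15.8%) and in 12.2% to 27.7% with CK-666 (median 18.8%), a mean log2 ratio of 0.20 ± 0.36 (SD) with 4 of 6 pairs higher (adjusted p = 0.54, exact sign-flip test). Without the pair of replicate 2, which holds the smallest library, this ratio was 0.098. Prey at AsiSI motifs also occurred in wild-type MEFs with a Cas9 bait, whose joins the paper treats as independent of AsiSI. They numbered 17 to 319 per library there, and their median overlap was 8 in each library. Where such reads come from, and whether they also occur in AsiSI-MEFs, was not tested. Longer overlaps, of 9 or more, were found in 18.4% ± 4.50 (SD) with DMSO and 20.9% ± 6.06 (SD) with CK-666, a mean ratio of 0.17 ± 0.29 (adjusted p = 0.54, exact sign-flip test) and 0.083 without replicate 2. Blunt joins, with an overlap of 0, were found in 15.8% ± 3.46 (SD) with DMSO and 15.2% ± 4.14 (SD) with CK-666, a mean ratio of -0.07 ± 0.17 (adjusted p = 0.54, exact sign-flip test) and -0.019 without replicate 2. Of the 8 classes of overlap, 0 had an adjusted p under 0.05 by the exact sign-flip test (0% of the classes). An unadjusted p under 0.05 was found in 0. Here too the adjusted count says little, since most of the 8 classes would have to reach this test's smallest p of 0.03125. An exact permutation test of 6 against 6 libraries without pairs, whose smallest p is 0.0022, also gave 0 and 0.

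The letters of the reads were checked directly. The intact motif GCGATCGC stood between the flanks of bait and prey in 8218 of 26635 prey at motifs, including 94.8% of those with an overlap of exactly 8 and 90.5% of those with 9 or more, in which the letters beside the motifs happen to match as well. Restored motifs made up 23.9% to 44.7% with DMSO and 25.2% to 54.0% with CK-666, a mean log2 ratio of 0.20 ± 0.35 (SD) with 4 of 6 pairs higher. Only products of at least 4 letters were ranked. Among these, each product that had lost letters was rare. The most frequent of them, TCGC, made up 1.56% of prey at motifs, with a mean log2 ratio of CK-666 to DMSO of 0.24 ± 0.38 (SD over 6 pairs). GCGACGC, the product of the blunt join shown above, made up 1.55% at a ratio of -0.22 ± 0.72. GCGCGC made up 1.55% at a ratio of 0.26 ± 0.56, and the ratio of GCGTCGC, at 1.52%, was 0.24 ± 0.42. None of these 4 ratios was larger than its spread over pairs.

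**Figure D3:**
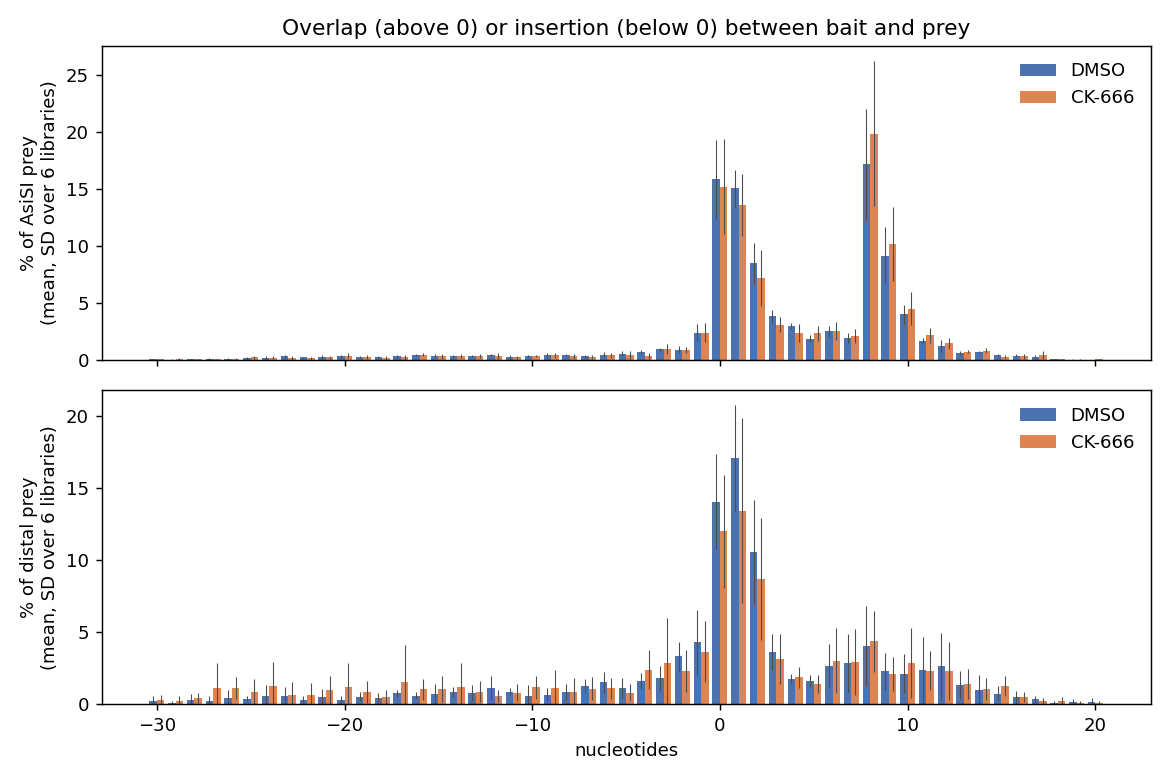
Overlap (positive) or insertion (negative) between bait and prey in nucleotides, as % of prey at AsiSI motifs (top) and over 10 kb from any motif (bottom); bars are means and lines the SD of 6 libraries. The peak at 8 (17.2% with DMSO and 19.9% with CK-666 at motifs) shrinks to 4.02% and 4.38% in distal prey.

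The share of restored motifs moved with the number of junctions in a library. It was higher in the library with fewer junctions in 5 of 6 pairs, and its Spearman correlation with the junctions used was -0.87 over the 12 libraries and -0.67 over the 8 libraries of replicates 3 to 6, which share a run. CK-666 had fewer junctions than DMSO in the pairs of replicates 2, 5 and 6 and more in those of 1, 3 and 4. It moved likewise with how often a motif was joined. At the 117 motifs with under 20 prey summed over the libraries, 77.3% of prey carried the restored motif. The value was 47.7% at the 154 motifs with 20 to 99 prey, 26.3% at the 55 motifs with 100 or more but under 300, and 14.9% at the 16 motifs with 300 or more. The authors removed duplicate reads, and no library held more than 5 junctions with the same bait end, prey position and strand; 92.1% of such sets held a single junction. A join that keeps every letter has 1 set of ends for each side of a motif, whereas joins that lost letters can have many. In the smallest library, replicate 2 of CK-666, the 78 perfect joins of 8 letters fell on 74 motif sides, and in replicate 3 of CK-666 465 fell on 306. Shares of overlap classes are shares of the junctions left after the removal of duplicates, among which the same ends could recur. The part of that removal and of library size in the shares and ratios above was not tested.

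**Figure D4:**
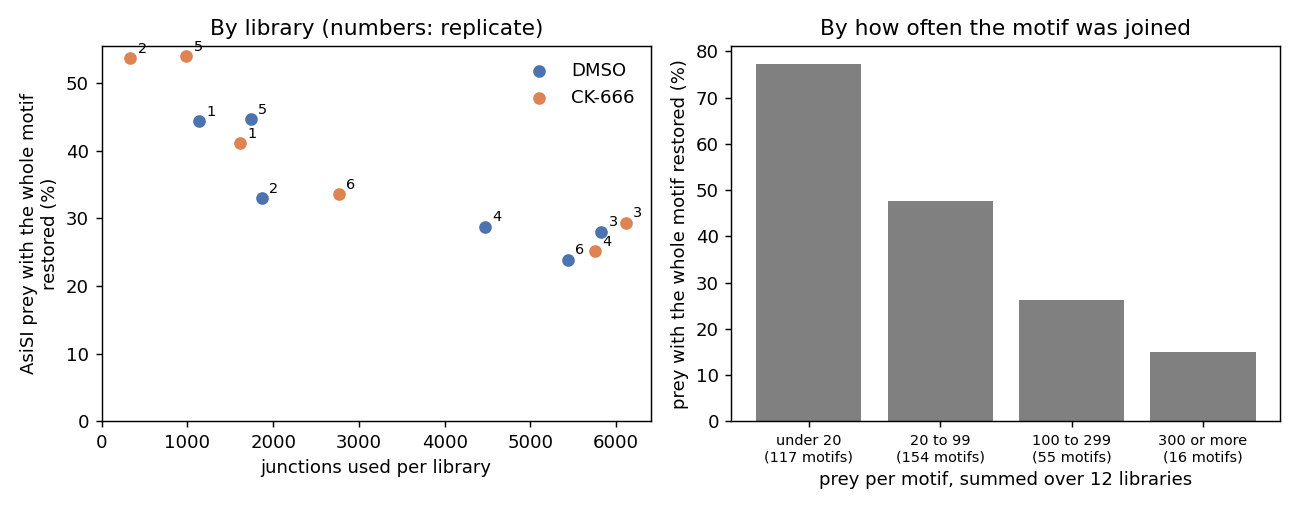
Prey at AsiSI motifs whose read carries the whole motif (%, vertical axes) against the junctions used in each library (left, points numbered by replicate) and by how many prey a motif received over the 12 libraries (right, bars). The share lies between 54.0% and 23.9% in the libraries and is 77.3% at the least joined and 14.9% at the most joined motifs.

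Inward prey made up 13.5% to 19.6% of prey at motifs with DMSO (median 15.9%) and 11.6% to 19.6% with CK-666 (median 16.1%). They lay at a median of 52.3 bp ± 5.61 (SD, n = 6) from the motif with DMSO and 51.8 bp ± 8.18 (SD, n = 6) with CK-666. Of these prey, 34.4% with DMSO and 33.4% with CK-666 were aligned into or past the motif, and the alignments of the others ended before it. Those aligned exactly to its far edge made up 12.4% and 12.2% of all inward prey. Few continued more than 8 bp past the motif, 13 of 2397 with DMSO and 13 of 1925 with CK-666. Of 1440 insertions of 10 or more letters at motifs, 1350 were in inward prey. The inserted letters were looked for in the 600 bp on either side of the prey motif. In 1094 of the 1350, or 81.0%, they matched the flank of that motif on the strand opposite to the prey, letter for letter, against 7 of 90 insertions in outward prey. Of these 1094, 1021 began within the motif or within 4 bp of its edge, and 939 followed a bait with its whole motif. The insertion shown above is of this kind: its 20 letters, agcggagaacgaggtgaggt, are the plus strand at 156144268 to 156144287, directly to the right of the Romo1 motif, and the prey then begins 58 bp from the motif and reads back towards it on the minus strand. The letters next to the bait thus came from the right side of the break in this read, while the table records the minus strand. The share of inward insertions that matched in this way was 81.0% ± 4.15 (SD, n = 6) with DMSO and 85.9% ± 8.82 (SD, n = 6) with CK-666, where replicate 2 held only 3 such insertions. Over outward prey alone, an alternative added after the values were seen, the right-side share of prey at motifs off chromosome 2 was 50.004% ± 0.751 (SD) with DMSO and 50.7% ± 0.571 (SD) with CK-666.

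Prey over 10 kb from any motif were compared by the same classes. An overlap of 1 or 2 letters was found in 27.7% ± 6.67 (SD) of distal prey with DMSO and in 22.1% ± 10.3 (SD) with CK-666, a mean log2 ratio of -0.42 ± 0.66 (adjusted p = 0.44, exact sign-flip test). Insertions of 10 or more were found in 11.2% ± 5.09 (SD) with DMSO and 18.4% ± 15.7 (SD) with CK-666, a mean ratio of 0.47 ± 0.69 (adjusted p = 0.44, exact sign-flip test). The highest value of the latter, 47.7%, came from the 44 distal prey of replicate 2 of CK-666. Of the 8 classes, 0 had an adjusted p under 0.05 by the exact sign-flip test (0% of the classes) and 0 an unadjusted one, and the exact permutation test without pairs gave 0 and 0. With the recurrent Cas9 windows left out, or with distances taken to the 97 frequently cut motifs only, 2 classes had an unadjusted p under 0.05. In these settings 0 had an adjusted one. Adjusted counts of the sign-flip test say little here, since most of the 8 classes would have to reach its smallest p of 0.03125.

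Chromosome 2, which carries the bait, received 22.5% to 27.0% of junctions with DMSO (median 26.4%) and 23.2% to 26.8% with CK-666 (median 25.5%). The groups overlapped, and limma with the pair as a factor gave a log2 ratio of -0.012 ± 0.021 (SE; adjusted p = 0.95). The next most joined were chromosomes 8, 9 and 11. Chromosome 8 received 7.19% ± 0.550 (SD) with DMSO and 7.17% ± 0.968 (SD) with CK-666. Chromosome 9 received 5.91% ± 1.49 (SD) and 5.71% ± 2.56 (SD), and chromosome 11 received 6.62% ± 0.599 (SD) and 6.63% ± 0.811 (SD). Their log2 ratios of -0.0071, -0.10 and 0.0025 were close to or within their SE of 0.075, 0.099 and 0.078. That of chromosome 9 was -0.015 without the pair of replicate 4 and -0.19 without that of replicate 3. Of 21 chromosomes, limma called 0 at an adjusted p under 0.05 (0% of those tested) and 0 at an unadjusted p under 0.05. The exact sign-flip test per chromosome also gave 0 at an unadjusted p under 0.05. Its adjusted count of 0 carries little weight, since most of the 21 would have to reach its smallest p of 0.03125. Log2 ratios ran from -0.61 to 0.23.

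Single AsiSI motifs were compared in the same way. Prey fell on 342 motifs, 225 of which had at least 20 prey over the 12 libraries and were tested; these held 97.1% of prey at motifs. Limma called 0 of 225 at an adjusted p under 0.05 (0% of those tested) and 10, or 4.44%, at an unadjusted p under 0.05. The exact sign-flip test per motif gave 1 at an unadjusted p under 0.05. Its adjusted count of 0 carries little weight, since most of the 225 motifs would have to reach its smallest p of 0.03125. Log2 ratios ran from -0.74 to 1.19 with a median of 0.0036, and the lowest adjusted p was 0.95.

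The 10 most joined motifs, 8 of them on chromosome 2, received 23.9% of prey at motifs. The Romo1 motif received 2.59% to 4.77% of a library's junctions with DMSO (median 2.86%) and 2.22% to 4.16% with CK-666 (median 3.15%). Its log2 ratio was 0.041 ± 0.13 (SE, limma adjusted p = 0.95). The motif at 31974701 to 31974708, 215 bp from a start of Nup214 and in an intron of this nuclear pore gene, received 1.97% ± 0.460 (SD) with DMSO and 1.61% ± 0.558 (SD) with CK-666, the most negative ratio of the 10 at -0.31 ± 0.16 (SE, limma adjusted p = 0.95) and -0.17 without the pair of replicate 5. The motif at 153649703 to 153649710, in an untranslated exon of Dnmt3b, which encodes a de novo DNA methyltransferase, received 1.38% to 3.27% with DMSO (median 1.94%) and 1.36% to 8.36% with CK-666 (median 1.94%). The value of 8.36% came from 28 of 335 junctions of replicate 2, and the log2 ratio of 0.21 was -0.057 without that pair.

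The remaining motifs of the 10 lay near the starts of Arhgap21, Arhgap11a, Samhd1, which encodes an enzyme that breaks down deoxynucleotides, Mex3a, which encodes an RNA-binding protein, Pomt1, which encodes an O-mannosyltransferase, Rcor1, which encodes a corepressor, and Egfl7, which encodes a secreted factor of blood vessels. On chromosome 2 they start at 20968930 (Arhgap21, 49 bp from the nearest start), 157135295 (Samhd1, 30 bp), 113847994 (Arhgap11a, in its coding exon), 32236003 (Pomt1, 580 bp) and 26586800 (Egfl7, in an untranslated exon). The motif near Mex3a starts at 88531586 of chromosome 3 and that near Rcor1 at 111039089 of chromosome 12. The log2 ratios of these 7 motifs ran from -0.091 at Egfl7 to 0.19 at Pomt1, each with a limma adjusted p of 0.95 or more.

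The even split between prey sides did not hold at single motifs. At the 56 motifs with at least 100 outward prey over the 12 libraries, the right side made up 9.63% to 96.6% of them, with a median of 47.5% and quartiles of 42.6% and 58.9%. It was under 40% at 12 motifs and over 60% at 12. At the Dnmt3b motif it was 77.3% with DMSO and 82.8% with CK-666, and at the Arhgap21 motif 68.2% and 74.8%. At the Samhd1 motif it was 30.4% with DMSO and 35.2% with CK-666, and at the Romo1 motif 39.3% and 34.0%. At the Arhgap11a motif it was 53.3% and 52.7%. These are shares summed over the 6 libraries of a condition, given as a description. The inward kind was likewise uneven: it made up 38.7% of prey at the Dnmt3b motif, 31.8% at the Arhgap21 motif and 31.6% at the Romo1 motif, but 2.62% at the Arhgap11a motif and 2.20% at the Rcor1 motif.

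**Figure D5:**
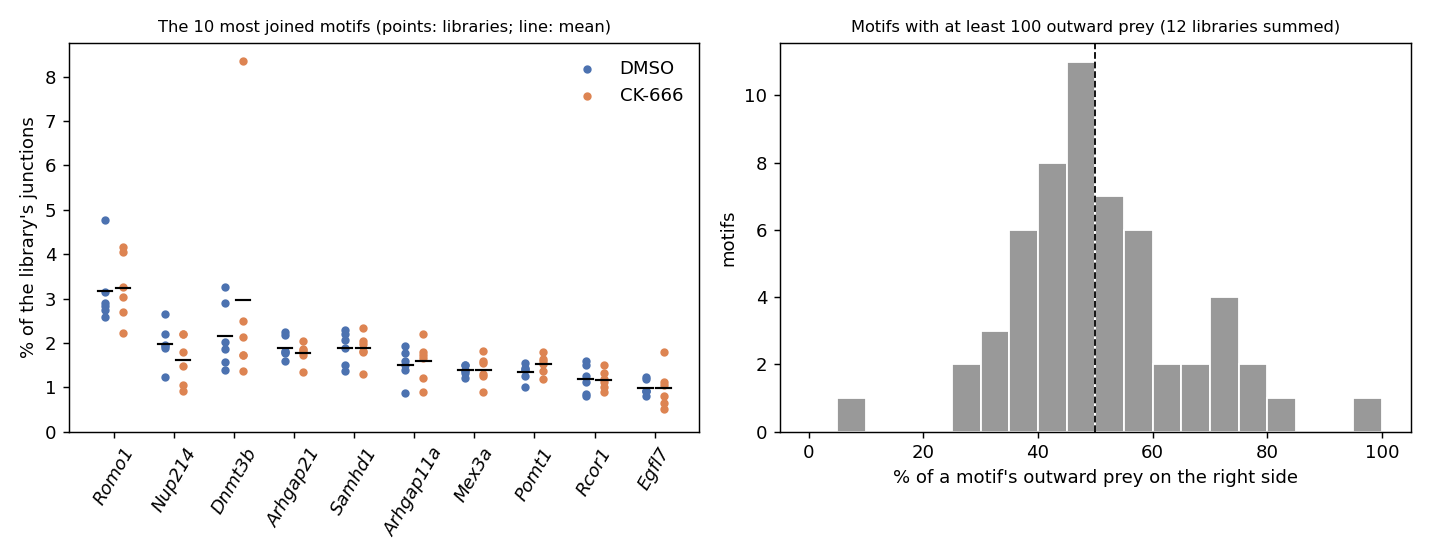
Left, share of each library's junctions (%) at the 10 most joined motifs, named by the nearest start of a coding gene, with points for libraries and lines for group means; right, number of motifs by the share of their outward prey on the right side (%), 12 libraries summed. The point at 8.36% is replicate 2 of CK-666, and the right-side shares reach from 9.63% to 96.6%.

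The same drug was applied to wild-type MEFs in which Cas9 made the bait break, with 3 CK-666 and 3 DMSO libraries. Prey in AsiSI-MEFs lay mostly at motifs, whereas a Cas9 library held 2242 to 4327 distal prey and 17 to 319 at AsiSI motifs. The Cas9 libraries also lie in another sequencing run, and the part of these differences in the ratios below was not tested. There the chromosome 2 share was 18.4% ± 3.51 (SD) with DMSO and 16.6% ± 3.19 (SD) with CK-666, a mean log2 ratio of -0.15 ± 0.093 (SD, 3 pairs, from -0.21 to -0.041), against -0.012 ± 0.048 (SD, 6 pairs) in AsiSI-MEFs. The difference of 0.14 had p = 0.024 in an exact two-sided permutation test over the 84 arrangements of the pairs and 0.071 after adjustment over the 3 measures compared, and so did not pass. For the right-side share the means were 0.035 ± 0.034 (SD) with the Cas9 bait and 0.0072 ± 0.025 (SD) in AsiSI-MEFs (adjusted p = 0.29, exact permutation test). For blunt joins among all junctions they were -0.18 ± 0.35 (SD) and -0.12 ± 0.13 (SD; adjusted p = 0.76, exact permutation test).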

How the data were processed

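Per the paper's methods, sonicated genomic DNA was amplified with a biotin-labelled primer and then a nested one and read on a MiSeq; the authors mapped reads to mm10 by the Burrows–Wheeler Aligner and applied the HTGTS pipeline's default filters (versions not given in the sources used here). The deposited tables list positions and strands of bait and prey and positions on the read, 1 junction per entry after removal of duplicates, with nothing normalized and no pooling. Bait-only sequences, to which the authors scale junction numbers, were not used here, so all values are shares of a library. The 1109 AsiSI motifs were those of the study's source data, and each was looked up in the mm10 reference, which held it in all 1109 cases. Genes came from GENCODE vM21.

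Overlap is the bait's last read position minus the prey's first, plus 1. Shares were compared as log2 of (junctions + 0.5)/(total + 1) by an exact two-sided sign-flip test over 6 pairs, whose smallest p is 0.03125. Chromosomes and motifs were tested on such values, times 1000, by limma with the trend option and the pair as a factor. P-values were adjusted by Benjamini and Hochberg. Pairs are libraries of 1 replicate number in the titles. Centred log2 shares of 157 windows of 1 Mb correlated at 0.025 to 0.62 within pairs, the lowest being 0.025 and 0.044 in pairs 2 and 4. Libraries of different numbers were not correlated, so these values cannot settle whether the numbers pair the libraries. Tests without pairs are given in the closing section. Named motifs are the 10 with most prey, and named chromosomes are chromosome 2 and the next 3. The limma fit was tested on simulated data. It recovered 18% of changes of 1 and 87% of changes of 2 (log2) over 225 motifs, and 50% and 100% over 21 chromosomes. The simulated spread was set in advance and not estimated from these libraries. All planted changes were increases with CK-666, so the recovery of decreases was not tested. The measures and lists were chosen with earlier results of these data known. Software was R 4.3.3 with limma 3.58.1, and Python 3.11.15 with scipy 1.17.1, pandas 2.3.3, numpy 2.4.6, matplotlib 3.10.9 and pysam 0.24.0. The closing section gives the alternatives tried, among them other sets of junctions or motifs, another pseudocount, single runs and each pair left out.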

Additional observations from a re-analysis of the deposited data

Results flagged for a closer look

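In 76 groups of 6 libraries, the highest or lowest library was compared with the nearest other by Dixon's ratio, and 8 exceeded the critical value of 0.625. For independent normal values of equal spread, chance alone exceeds it in about 1 of 20 groups. Libraries of unequal size, and classes that are parts of the same library, need not keep that rate. Whether these 8 exceed chance was not tested. Among DMSO libraries, replicate 3 had 64.2% of its prey at AsiSI motifs, against 74.5% to 80.5% in the others. Replicate 5 of DMSO stood apart in its distal prey, of which 7.39% were blunt (others 15.1% to 16.04%), 12.3% had an overlap of 6 or 7 (others 3.01% to 5.70%), 9.36% one of exactly 8 (others 2.03% to 4.66%) and 34.7% one of 9 or more (others 7.56% to 11.4%). Replicate 5 of CK-666 had the same profile, with 7.69%, 12.5%, 7.21% and 28.4% in these classes, each the extreme of its group. Replicate 1 of DMSO had 4.77% of its junctions at the Romo1 motif, against 2.59% to 3.16%. Replicate 2 of CK-666, the smallest library, had 8.36% of its junctions at the Dnmt3b motif, against 1.36% to 2.48%, and an overlap of 6 or 7 in 2.11% of its prey at motifs, against 4.42% to 5.50%.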

How the results depend on the processing

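Of 493 values recomputed for 32 results, 448 kept their direction and their side of the threshold and 43 changed sign. The other 2 concerned a single call, named below. The cause of these changes was not tested. No main result had passed the threshold, so keeping its side meant not passing. With 1 pair left out, or within 1 run, the sign-flip test has too few pairs to reach the threshold. Those tests of shares and overlap classes could not change side, so for them only the direction is informative. With junctions within 10 kb of the bait included, the mean log2 ratio became -0.012 for the right-side share, -0.056 for that on chromosome 2 downstream, and the AsiSI minus Cas9 difference in blunt joins -0.0020. With the recurrent Cas9 windows left out the last was -0.026. With each prey position counted once per library, ratios were -0.0084 for the right-side share, -0.00085 for that of prey off chromosome 2 and -0.025 for chromosome 11. A pseudocount of 2 gave 0.0043 for chromosome 8. Within the run of replicates 1 and 2, chromosome 2 downstream gave -0.0071, chromosome 8 0.014, and the motifs of Romo1, Arhgap21, Samhd1, Arhgap11a, Mex3a, Rcor1 and Egfl7 -0.18, 0.067, -0.19, -0.14, -0.20, -0.20 and 0.22; there limma called 1 motif, Dnmt3b (0.57), from 2 pairs. Within the run of replicates 3 to 6, prey over 50 bp away gave 0.036, chromosome 2 0.0018 and chromosome 11 -0.033.

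Leaving out 1 pair at a time gave -0.0010 to 0.012 for the right-side share, -0.021 to 0.078 on chromosome 2 downstream, -0.027 to 0.22 for distal prey, -0.25 to 0.11 for prey over 50 bp away, -0.089 to -0.017 for prey at motifs, 0.083 to 0.20 for the whole bait motif, 0.098 to 0.28, 0.083 to 0.23 and -0.11 to -0.019 for overlaps of 8, of 9 or more and of 0, and -0.14 to 0.21 for the Cas9 difference in blunt joins. For chromosomes 2, 8, 9 and 11 it gave -0.023 to 0.0043, -0.061 to 0.039, -0.19 to -0.015 and -0.058 to 0.035. For the motifs of Nup214 and Arhgap21 it gave -0.38 to -0.17 and -0.15 to -0.020. For those of Romo1, Dnmt3b, Samhd1, Arhgap11a, Mex3a, Rcor1 and Egfl7 it gave -0.080 to 0.12, -0.057 to 0.33, -0.063 to 0.069, -0.094 to 0.19, -0.097 to 0.11, -0.11 to 0.14 and -0.32 to 0.012. Without the replicate block (exact permutation of 6 against 6 libraries) the right-side ratio was 0.0072 with an adjusted p of 0.75, and the block changed no call. Depth limits the smallest library most: its 335 junctions leave an interval of 46.3% to 56.9% around 51.6%.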

Other observations

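Junctions on unplaced sequences, outside chromosomes 1 to 19, X and Y, were left out of all shares. They made up 0.214% to 5.20% of the deposited junctions of a DMSO library and 0.276% to 7.73% of those of a CK-666 library. Replicate 3 was the highest in each group.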
